A study of Mus musculus with 81 samples.

Results

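The ORR1D and ORR1E elements are 7 of the 680 named species of long terminal repeat (LTR) elements counted in this series of mouse fetal testis cells. They were taken as every locus whose species name begins with ORR1D or ORR1E, which gave 64648 of 970384 LTR loci (6.66%). The LTR species were ORR1D1 with 21491 loci (median length 227 bases), ORR1D2 with 15053 (276 bases) and ORR1E with 22710 (263 bases). The internal species were ORR1D1-int with 1714 loci (342.5 bases), ORR1D2-int with 1361 (304 bases), ORR1D-int with 875 (406 bases) and ORR1E-int with 1444 (332 bases). An exon of an annotated gene overlapped 1443 of these loci (2.23%), a further 23168 (35.8%) lay in an intron, and 40037 (61.9%) lay outside genes.

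ORR1 elements belong to the MaLR group, non-autonomous relatives of the ERVL retroviruses, and are found in rodent genomes. An intact copy has an LTR at each end, which holds the promoter and the signal for polyadenylation, and an internal part (-int) that encodes no retroviral proteins. Most copies are now solo LTRs, left behind when the LTRs at both ends recombined. The letters mark subfamilies, of which A is the youngest and E among the oldest, so ORR1D and ORR1E copies are old and worn by mutation. Younger MaLR elements are known for LTRs that serve as promoters in oocytes and early embryos. In male fetal germ cells the DNA methylation of transposons is rebuilt before birth, with help from the piRNA pathway.

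The study asked whether exposure of pregnant F0 mothers to tributyltin (TBT), an organotin that promotes fat storage, altered RNA or DNA methylation in the testes of their F1 and F3 descendants. OG2 mice, in which the Oct4 promoter and distal enhancer drive EGFP in germline cells, were given 50 nM TBT or the vehicle DMSO in drinking water, and fetal testes were sorted at E18.5. P4 and P5 were EGFP-positive germline cells split by side scatter, and P6 was the EGFP-negative remainder, a mixture of somatic types. RNA was sequenced from 62 libraries. In F1 there were 5 DMSO and 7 TBT libraries of P4, 4 and 7 of P5, and 5 and 7 of P6, and in F3 there were 4 DMSO and 5 TBT libraries of each population. Methylated DNA captured with an MBD protein was sequenced from P6 cells only, with 3 DMSO and 4 TBT libraries in F1 and 5 and 7 in F3. All groups carried the OG2 transgene, and F3 animals had no direct exposure. For the methylated DNA the study describes independently generated samples, and it names 3 independent litters for the F1 profiles it plots. For the RNA the sources used here do not tie libraries to litters, so each test measures the spread between libraries. F1 germline labels came in sets by first number. With TBT they were 45-3, 45-4, 45-5, 47-1, 47-3, 47-4 and 47-5, and with DMSO 43-4, 43-5, 44-1, 44-3 and 48-4. No first number occurs in both exposures, what it names is not stated, and the tests take libraries as separate.

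RNA levels were deposited as CPM, read counts relative to a library size scaled by TMM. Reads at LTR loci ranged from 246520 to 8161548 per library, of which 12843 to 575737 fell on ORR1D and ORR1E loci. The 2 germline populations and P6 were scaled in separate tables, so levels are set side by side across them without a test. Of the 22 germ cell marker genes 16 hold an LTR locus, and the summed level of those loci averaged 11094 to 21511 CPM in the germline groups and 33.2 to 178 CPM in the P6 groups. Loci in 6 of the 8 Sertoli cell markers summed to 1218 to 1364 CPM in P6 groups and to 10.6 to 93.2 CPM in germline groups. Libraries 5 and 9 of F3 P4 TBT, 1 and 2 of F3 P5 DMSO and 5 of F3 P5 TBT had less than 0.5 of the median F3 germline depth, with 246520 to 2017404 reads against 2755294 or more in the others. In library 5 of F3 P5 TBT the germ cell markers summed to 801 CPM. Libraries 7 and 8 of F1 P6 TBT also stood apart, as described for loci outside genes. Further values without these libraries stand beside the results below.

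The sequences of 8 loci are printed below. For each species but ORR1D1-int the locus outside genes with the highest mean level is shown, since its reads do not fall in an annotated intron or exon. Some lay close to a gene, the ORR1D-int locus 45 bases from Gm12318 and the ORR1D2-int locus 196 bases from Gm4322. Whether reads of neighbouring genes reach such loci was not tested. A pair of ORR1E loci that were higher in P5 than in P4 cells in several comparisons is shown as well. Each sequence is the plus strand of mm10, 5′ to 3′ in genome order, up to the first 300 bases of the locus, since the table gives no strand for an element. In capitals are AATAAA (part of polyadenylation signals) and TATAAA (part of many promoters), on either strand.
ORR1E chr14:19703244-19703552: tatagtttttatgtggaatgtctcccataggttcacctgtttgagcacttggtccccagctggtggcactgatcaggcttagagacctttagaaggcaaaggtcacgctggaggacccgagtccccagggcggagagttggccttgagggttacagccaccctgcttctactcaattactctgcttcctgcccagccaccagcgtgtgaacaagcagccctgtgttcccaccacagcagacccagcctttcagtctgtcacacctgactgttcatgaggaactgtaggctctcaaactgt
ORR1E chr17:6438203-6438519: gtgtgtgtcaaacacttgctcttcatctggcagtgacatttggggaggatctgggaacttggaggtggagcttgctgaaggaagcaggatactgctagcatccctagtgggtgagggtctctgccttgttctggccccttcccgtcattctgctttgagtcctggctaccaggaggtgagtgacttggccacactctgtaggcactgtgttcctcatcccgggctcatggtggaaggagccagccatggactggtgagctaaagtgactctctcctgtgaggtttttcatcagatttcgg
ORR1D1 chr17:56610380-56610732: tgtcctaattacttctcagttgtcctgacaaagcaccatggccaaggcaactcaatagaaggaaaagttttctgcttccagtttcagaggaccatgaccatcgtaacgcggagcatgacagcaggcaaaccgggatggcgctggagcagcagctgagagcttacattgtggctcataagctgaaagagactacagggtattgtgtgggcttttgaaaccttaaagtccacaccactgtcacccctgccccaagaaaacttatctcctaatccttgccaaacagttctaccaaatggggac
ORR1D2 chr5:100728774-100729042: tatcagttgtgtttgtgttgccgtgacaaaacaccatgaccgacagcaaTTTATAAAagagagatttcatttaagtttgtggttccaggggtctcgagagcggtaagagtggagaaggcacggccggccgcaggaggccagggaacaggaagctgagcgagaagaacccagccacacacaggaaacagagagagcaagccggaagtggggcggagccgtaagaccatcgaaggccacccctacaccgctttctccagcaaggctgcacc
ORR1D2-int chr1:150268425-150268730: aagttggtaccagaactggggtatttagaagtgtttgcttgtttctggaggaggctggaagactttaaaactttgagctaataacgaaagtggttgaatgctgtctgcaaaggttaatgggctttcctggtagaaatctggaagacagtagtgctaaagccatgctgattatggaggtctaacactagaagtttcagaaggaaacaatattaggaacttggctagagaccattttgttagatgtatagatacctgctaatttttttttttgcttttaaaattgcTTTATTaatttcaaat
ORR1D-int chr11:70762424-70763202: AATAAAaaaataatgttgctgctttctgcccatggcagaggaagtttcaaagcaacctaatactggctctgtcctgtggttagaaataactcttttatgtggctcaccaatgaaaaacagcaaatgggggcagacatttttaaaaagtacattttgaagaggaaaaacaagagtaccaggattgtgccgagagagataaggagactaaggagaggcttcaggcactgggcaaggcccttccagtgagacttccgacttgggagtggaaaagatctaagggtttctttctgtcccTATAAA
ORR1E chr7:107591780-107592023: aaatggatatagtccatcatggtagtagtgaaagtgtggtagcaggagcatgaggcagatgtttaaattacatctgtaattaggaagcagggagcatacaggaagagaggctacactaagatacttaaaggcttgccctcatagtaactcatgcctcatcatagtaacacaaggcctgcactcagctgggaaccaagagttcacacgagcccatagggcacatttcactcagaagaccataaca
ORR1E-int chr2:179417771-179418403: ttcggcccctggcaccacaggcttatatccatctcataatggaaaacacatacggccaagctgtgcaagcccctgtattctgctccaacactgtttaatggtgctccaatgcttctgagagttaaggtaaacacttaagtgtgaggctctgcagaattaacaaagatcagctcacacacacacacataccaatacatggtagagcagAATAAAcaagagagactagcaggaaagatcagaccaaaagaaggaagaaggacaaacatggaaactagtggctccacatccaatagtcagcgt

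Of these loci only the ORR1D1 locus had both ends of an intact LTR. The ORR1D1 locus at chr17:56610380-56610732, 609 bases from 2410015M20Rik, began with TG and ended with CA. The ORR1D2 locus at chr5:100728774-100729042 had 13 CpG sites in 269 bases and a GC content of 54.6%. The ORR1E locus at chr14:19703244-19703552 lay 6035 bases from its nearest gene, Gm49341. It had 4 CpG sites in 309 bases and held neither AATAAA nor TATAAA in its first 300. The ORR1E locus at chr17:6438203-6438519 lay in an intron of Gm26848 and held neither motif in the first 300 of its 317 bases.

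Over all loci the subtypes differed in their sequence. Intact LTR ends, TG at the start and CA at the end, were found in 14.1% of ORR1D1 loci and 12.2% of ORR1D2 loci, against 7.57% and 7.09% of the other LTR loci in the same range of lengths. Only 4.43% of ORR1E loci had both, against 7.05%. CpG sites numbered 0.562 per 100 bases in ORR1D1 and 0.743 in ORR1E, and 0.649 in all members, against 0.782 in other LTR loci of that length range. AATAAA on either strand was in 27.0% of members (27.4% of the others) and TATAAA in 20.3% (18.9%). ORR1D-int stood apart with AATAAA in 52.1% of loci (35.8%), TATAAA in 47.5% (23.04%) and a median GC content of 36.6% (44.2%). These motif matches are descriptions of the letters and not of sites in use.

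Position also separated the subtypes. Of ORR1D-int loci 76.8% lay outside genes, the highest share of the 7 species. An ORR1 LTR lay within 200 bases of 75.4% of ORR1D1-int, 70.5% of ORR1D2-int and 69.7% of ORR1E-int loci, but of only 8% of ORR1D-int loci. ORR1E-int was next to an ORR1E LTR in 65.9% of loci, and ORR1D1-int in 0.117%. The X chromosome held 17.05% of ORR1D2-int loci, against 5.96% of other LTR loci in that length range, and 3.14% of ORR1E loci, against 5.64%.

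ORR1D and ORR1E loci took a similar share of LTR reads in every group, between 6.39% and 7.37% on average. ORR1D1 had the most reads in every group and ORR1D-int the fewest. In F1 P4 cells of the DMSO lineage ORR1D1 had 31505 ± 1397 CPM (SD, n = 5), ORR1E 20141 ± 704 CPM and ORR1D2 15963 ± 622 CPM. The internal species had 2491 ± 157 CPM for ORR1D1-int, 1453 ± 45.6 for ORR1D2-int, 1099 ± 59.2 for ORR1E-int and 542 ± 32.9 for ORR1D-int. Per kilobase of annotated length inside genes the order in these cells was ORR1D1 (15.3 CPM per kb), ORR1D2 (11.4), ORR1E (8.88), ORR1D1-int (8.15), ORR1D-int (7.92), ORR1D2-int (7.46) and ORR1E-int (4.25). In these cells each LTR part was above each internal part on this scale. In F3 P4 TBT and F3 P5 DMSO cells ORR1D-int was above ORR1E, with 8.70 and 8.26 CPM per kb in the first and 8.01 and 7.12 in the second.

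The balance of subtypes differed between germline and somatic cells. ORR1E took 1.96% of LTR reads in F1 P4 and 1.99% in F1 P5 DMSO cells but 2.34% in F1 P6 DMSO cells. The same order held in F3, with 1.83%, 1.84% (1.92% without the shallow libraries) and 2.36%. ORR1E-int went the same way, with 0.107%, 0.124% and 0.153% in F1 DMSO cells. ORR1D1 and ORR1D1-int had their largest shares in P4 cells of F1, 3.07% and 0.242% with DMSO, against 2.86% and 0.208% in P6. ORR1D2 hardly moved, from 1.46% to 1.57% over the 12 groups. In the plot of shares by subtype the TBT and DMSO libraries overlap in every population. P6 was scaled apart and is a mixture, so a different makeup of cells and a different level per cell cannot be told apart.

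**Figure D1:**
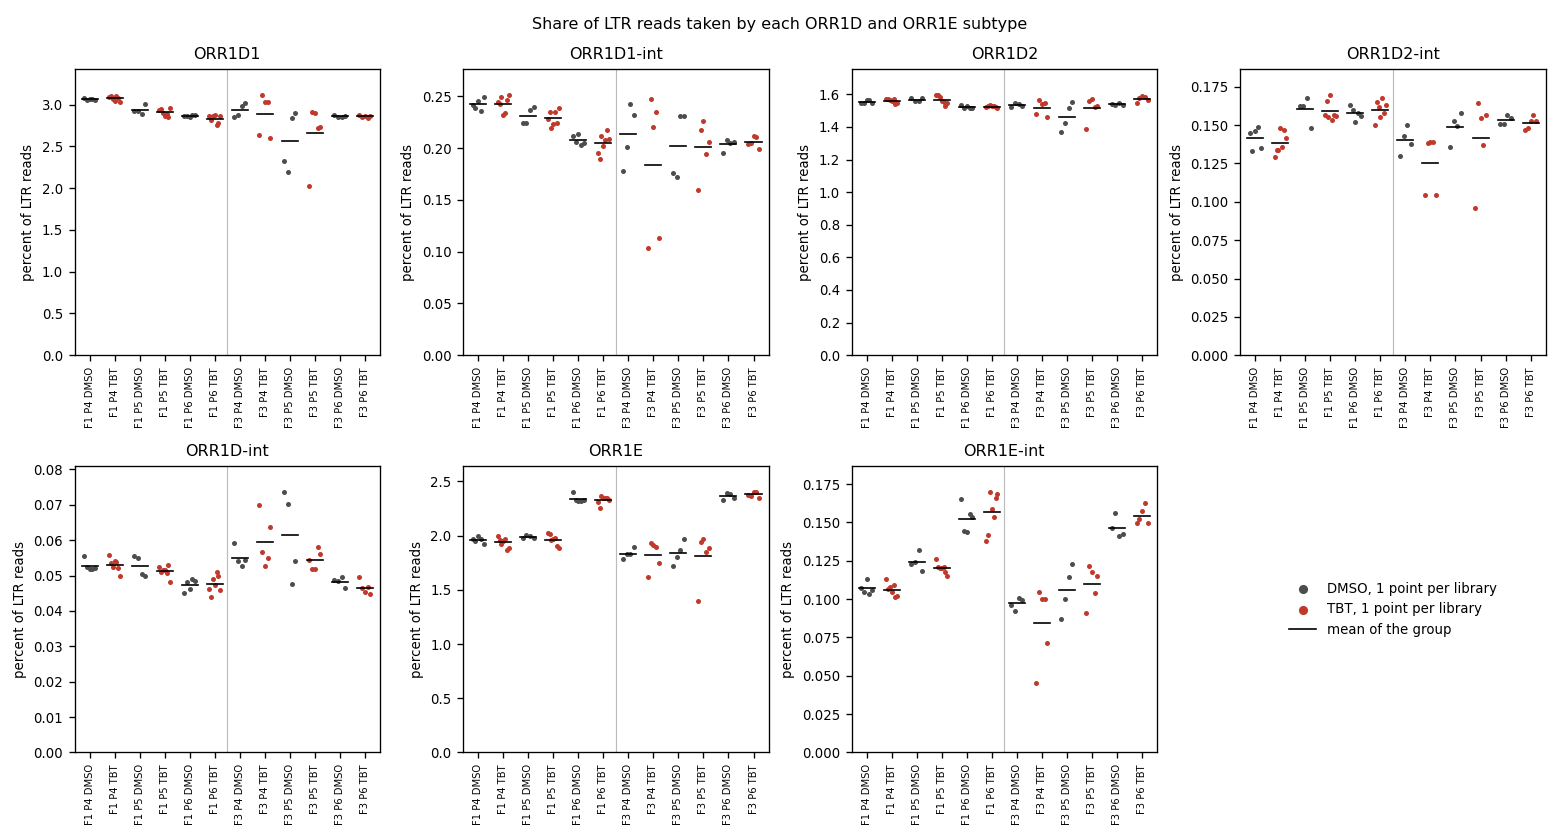
Share of all LTR reads (percent, vertical axis) taken by each ORR1D and ORR1E subtype in every RNA library, with 1 point per library (grey DMSO, red TBT) and a line at the group mean. ORR1E and ORR1E-int had larger shares in P6 than in P4 or P5 cells of both generations, and several F3 germline libraries lie far from their group.

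Most reads fell on loci in introns. In F1 P4 cells 93.0% of ORR1D and ORR1E reads were in introns, 5.57% on loci overlapping exons and 1.44% outside genes. Only 32.3% of loci had any read there. The highest loci of the LTR species were in genes of germ cells or of general use. The ORR1D1 locus chr5:135335424-135335651, in an intron of Fkbp6, an immunophilin needed for male meiosis, averaged 525 ± 89.8 CPM in F1 P4 DMSO (n = 5), 359 ± 30.9 in F1 P5 DMSO (n = 4) and 0.621 ± 0.415 in F1 P6 DMSO cells (n = 5). The ORR1E locus chr10:95487336-95487520, in Mrpl42, which encodes a mitochondrial ribosomal protein, had 273 ± 38.1, 205 ± 19.5 and 71.3 ± 6.48 CPM in the same groups. The ORR1D-int locus chr1:38010937-38011008, in the translation initiation factor gene Eif5b, had 41.0 ± 6.08, 34.0 ± 5.07 and 28.4 ± 3.71 CPM.

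The other 3 internal species had their highest locus in Smoc2, a gene for a secreted calcium-binding matrix protein, and there the order was turned round. The ORR1D1-int locus chr17:14359796-14360155 had 235 ± 16.8 CPM in F1 P6 DMSO cells, between 217 and 261 CPM, and 0 to 4.99 CPM in the F1 P4 and P5 DMSO libraries. The groups did not overlap. The ORR1D2-int locus chr17:14293175-14294488 and the ORR1E-int locus chr17:14297080-14297231 lay in the same gene.

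In introns many neighbouring loci carried exactly the same values. Of the ORR1D and ORR1E loci with a mean of at least 5 reads' worth of CPM in the F1 germline table, 37.9% (2749 of 7259) had the same value as another LTR locus in all 23 libraries, against 34.4% of all such LTR loci. The share was 40.7% in introns and 3.35% outside genes. Of the groups of identical loci that hold a member 99.8% lay within 1 gene, and in 86.8% no exon lay between them. Counts of intron loci are therefore also given as distinct profiles or host genes. Libraries were primed with oligo(dT), and neither kit nor counting was stated to keep strand, so reads of a host gene's unspliced RNA and reads of an LTR transcript cannot be told apart.

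The share of reads on loci outside genes differed between the sorted populations of F1. In F1 DMSO cells the share of ORR1D and ORR1E reads outside genes was 1.53% ± 0.0912 in P4 (1.43% to 1.63%, n = 5), 3.16% ± 0.564 in P5 (2.44% to 3.82%, n = 4) and 0.451% ± 0.111 in P6 (0.324% to 0.617%, n = 5). These 3 ranges did not overlap. In the F1 TBT lineage P4 had 1.38% ± 0.174 (1.17% to 1.61%, n = 7) and P5 3.66% ± 0.807 (2.54% to 4.61%, n = 7), again without overlap. All LTR loci moved alike, from 2.27% in P4 to 5.04% in P5 of F1 DMSO. F3 P4 cells had 2.64% ± 0.893 with DMSO and 4.49% ± 3.63 with TBT, and F3 P5 cells 10.6% ± 7.43 and 9.87% ± 9.42. The highest F3 shares, from 8.43% to 26.4%, were all in the 5 libraries of low depth. Without them F3 P4 TBT had 1.84% ± 0.401 (n = 3), F3 P5 DMSO 4.40% ± 0.892 (n = 2) and F3 P5 TBT 5.74% ± 2.16 (n = 4). The part of depth in these shares was not tested.

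P6 cells of the F1 TBT lineage were split. Their lowest, median and highest shares were 0.313%, 0.667% and 4.603%. Libraries 7 and 8 had 4.603% and 4.56%, and the other 5 were at or below 0.860%. In CPM the mean over the 7 libraries was 1252, against 325 in the DMSO lineage, and 439 without libraries 7 and 8. Libraries 7 and 8 had the highest values of the group for all 7 subtypes. All LTR loci were split alike, with 6.79% and 6.95% of LTR reads outside genes in libraries 7 and 8 and at most 1.82% in the others. Germ cell markers ran from 44.7 to 73.3 CPM over all 7 libraries, against 17484 to 27340 CPM in the P4 libraries of the same lineage.

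**Figure D2:**
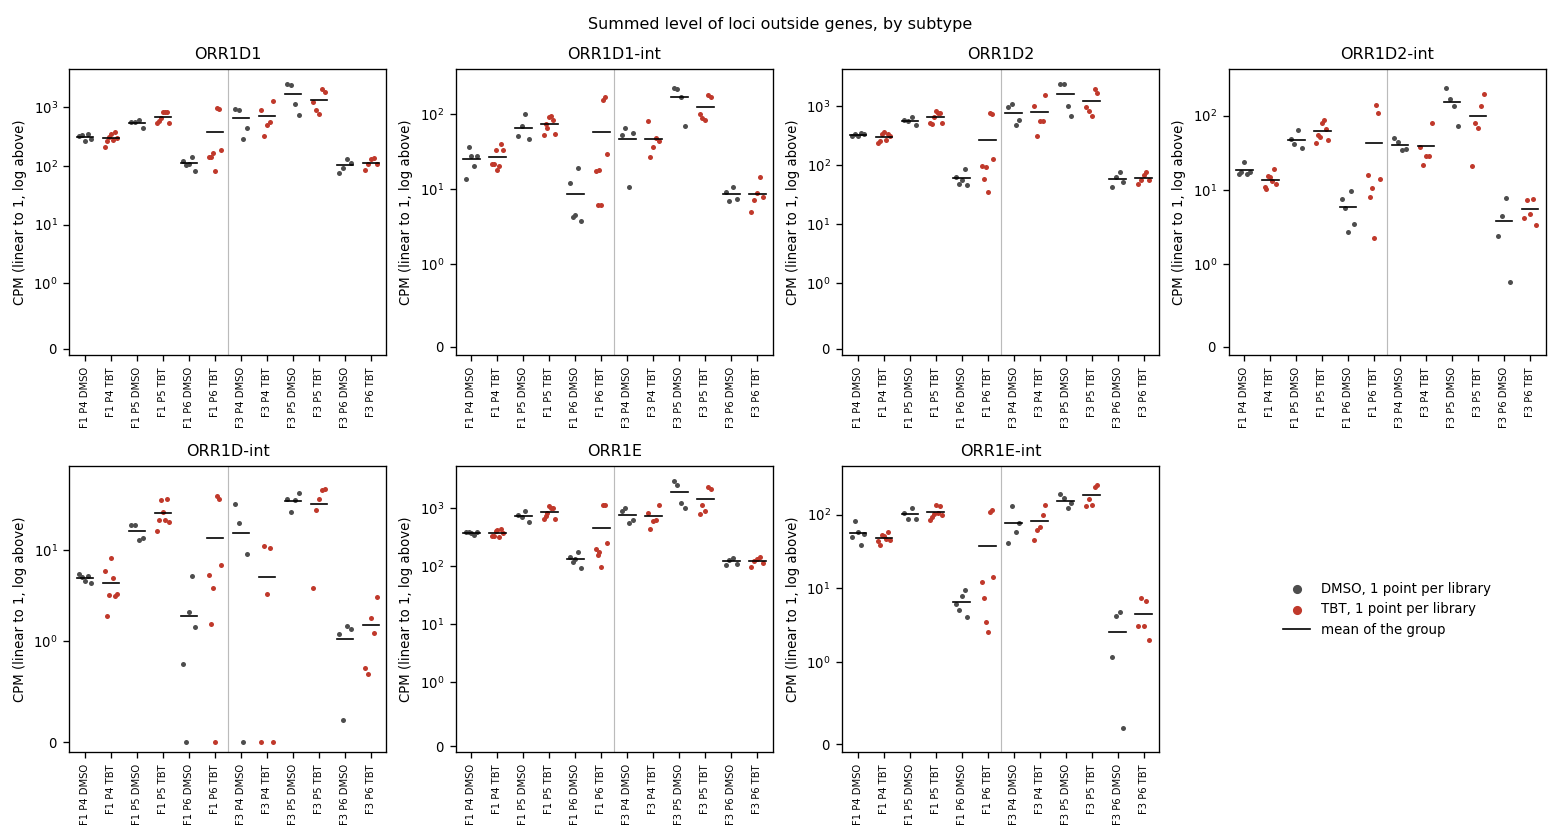
Summed level of the loci outside genes (CPM, linear to 1 and logarithmic above) for each subtype in every RNA library, with 1 point per library (grey DMSO, red TBT) and a line at the group mean. P5 libraries lie above P4 libraries in F1 for each subtype, P6 group means lie lowest in F3, and libraries 7 and 8 of F1 P6 TBT lie apart from the rest of their group.

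Among subtypes ORR1E-int had the largest share of its reads outside genes in all 4 germline populations, with 4.58% in F1 P4, 9.01% in F1 P5, 7.34% in F3 P4 and 15.5% in F3 P5, each over DMSO and TBT libraries together. ORR1D1 had 0.934%, 2.26%, 2.01% and 5.58%. Without the shallow libraries ORR1E-int had 5.98% in F3 P4 and 13% in F3 P5, and ORR1D1 1.47% and 3.73%. The ORR1E-int locus printed above, chr2:179417771-179418403, 889 bases from 4930591A17Rik, had group means of 14.4 to 31.3 CPM in germline cells and 0 to 0.208 CPM in P6. The ORR1D2 locus chr5:100728774-100729042, 9058 bases from Hpse, averaged 37.0 CPM in F1 P4 DMSO cells and 0.104 CPM in F1 P6 DMSO cells. The ORR1E locus chr7:107591780-107592023, 686 bases from Olfml1, was the reverse, with group means of 25.2 to 28.9 CPM in P6 and 0 to 0.876 CPM in germline cells.

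The comparison of P5 with P4 asked how the germline cells of the 2 side scatter gates differed. Each locus was tested with limma on log2(CPM + 1 unit), where 1 unit is the value of 1 read in the median library, over all LTR loci averaging 5 units or more. A locus was called at a Benjamini-Hochberg FDR under 0.05. In the F1 DMSO lineage 7188 members were tested, 427 were higher in P5 (5.94%) and 432 lower (6.01%). Over all LTR loci 6.47% were higher and 5.97% lower, so members were close to the background. The called members had 746 distinct profiles in 463 host genes. The median log2 fold change of the members was -0.12, and that of all LTR loci was -0.10.

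In the F1 TBT lineage, with 7 libraries in each group, 982 of 7530 members were higher (13%) and 1107 lower (14.7%), with 1814 distinct profiles in 1078 host genes. The background was 14.6% higher and 14.2% lower. The DMSO and TBT lineages share no library. Of the 859 members called in the DMSO lineage 718 (83.6%) were also called in the TBT lineage, where they made up 34.4% of 2089, and all 718 had the same direction. Over all LTR loci 80.2% of the calls in the DMSO lineage were also made in the TBT lineage, 32.8% of the calls there. Across the 6910 members tested in both, log2 fold changes had a Pearson r of 0.73 (0.75 over all LTR loci), given as a description over loci that are not independent replicates. Scaling each library to the same total turned the split to 505 higher and 195 lower in the DMSO lineage, against 7.5% and 2.6% of all LTR loci, and to 1198 and 519 in the TBT lineage, against 17.7% and 6.56%. Endothelial markers, with loci in 4 of 4 genes, had a mean of 20.9 CPM (12.8 to 23.8) in F1 P4 and 57.2 CPM (26.8 to 80.1) in F1 P5 DMSO cells, against 152 CPM in P6. In P4 and P5 DMSO cells Pecam1 had a mean of 10.03 and 27.6 CPM, Tek 7.73 and 26.3 and Cdh5 2.94 and 2.81, so the rise was not in Cdh5, while in P6 Cdh5 had 99.8 CPM, Tek 44.3 and Pecam1 7.75. In the TBT lineage the list had 36.2 CPM (31.2 to 40.6) and 62.9 CPM (40.0 to 93.0). Loci in 6 of 8 Sertoli cell markers had 38.4 CPM (18.7 to 88.3) in P4 and 93.2 CPM (37.7 to 154) in P5 of the DMSO lineage, and 23.03 CPM (9.22 to 41.1) and 41.9 CPM (30.2 to 61.5) in the TBT lineage. Loci in 3 of 6 Leydig cell markers had 89.1 CPM (6.94 to 215) and 35.0 CPM (8.64 to 57.4) in the DMSO lineage, and 15.6 CPM (3.63 to 39.4) and 26.5 CPM (10.4 to 42.4) in the TBT lineage. Loci in 2 of 4 red blood cell markers went from 25.5 CPM (23.4 to 31.2) to 19.3 CPM (18.4 to 21.5) in the DMSO lineage. The germ cell list, with loci in 16 of 22 genes, had 18123 CPM (15486 to 21374) in P4 and 13753 CPM (12348 to 16633) in P5 of the DMSO lineage, and 21511 CPM (17484 to 27340) and 15876 CPM (11886 to 23211) in the TBT lineage. In the DMSO lineage the P4 mean was above the P5 mean for Dazl (536 and 345 CPM), Ddx4 (1859 and 1305) and Mael (3940 and 2609), while Mov10l1 had 389.98 and 1461 CPM. Of the 7 lists the endothelial and the red blood cell list did not overlap between P4 and P5 of the DMSO lineage. The part of these cells in the result was not tested.

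**Figure D3:**
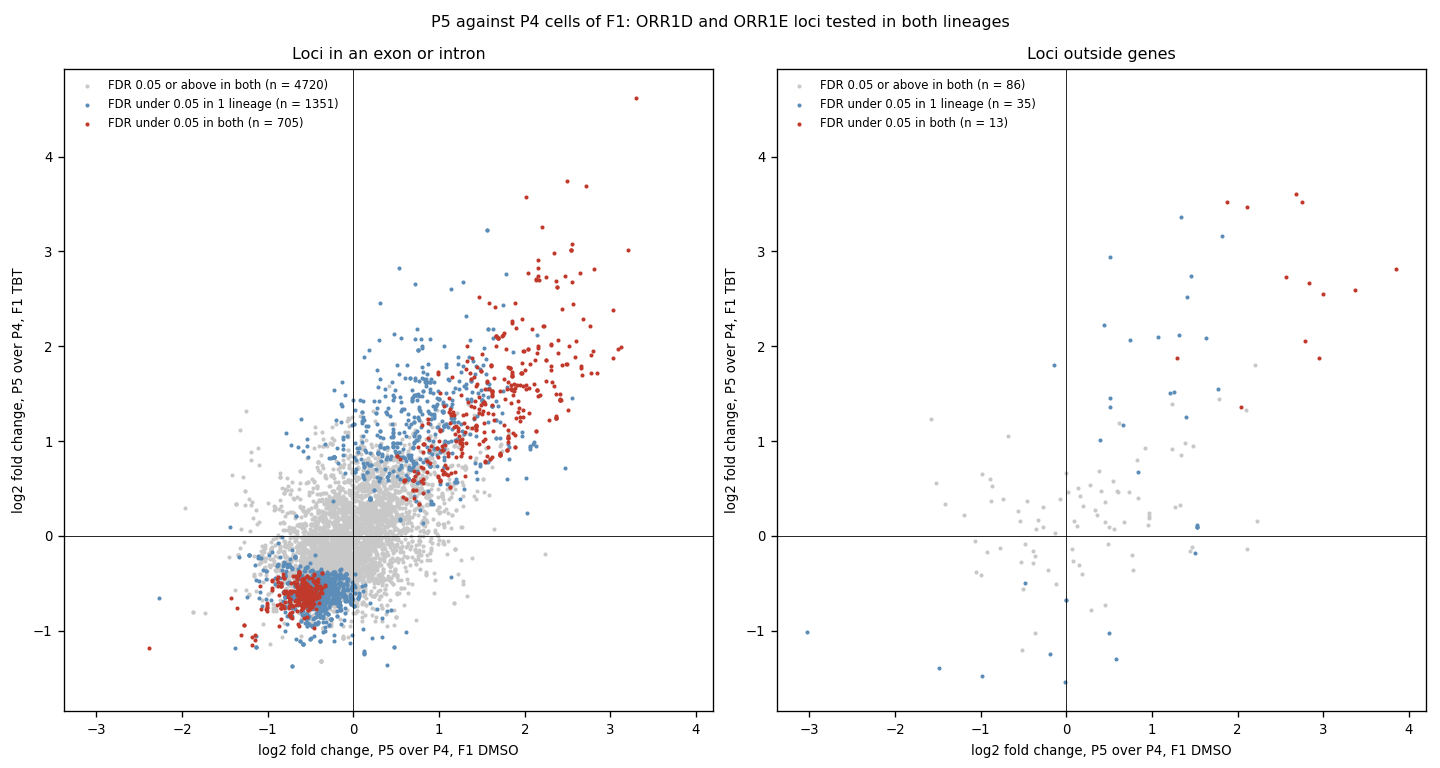
Log2 fold change of P5 over P4 for each ORR1D and ORR1E locus tested in both F1 lineages, DMSO on the horizontal and TBT on the vertical axis, for loci in genes (left) and outside genes (right). Points are red for the 705 and 13 loci with an FDR under 0.05 in both lineages, blue for 1 lineage and grey for neither, and the 13 red points outside genes all lie above 0 on both axes.

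Members outside genes were called higher more often than lower, though not among those of higher mean in the TBT lineage. In the F1 DMSO lineage 29 exon members were higher and 20 lower of 417, against 7.32% and 6.7% of all LTR loci on exons. In introns 379 were higher and 411 lower of 6611, against 5.99% and 6.13% of all LTR loci there, a split that turned to 444 and 182 with each library scaled to the same total, against 6.99% and 2.69% there. Outside genes 19 were higher and 1 lower of 160, against a background of 15.2% higher and 1.57% lower among LTR loci outside genes. In the TBT lineage 65 were higher and 9 lower of 203, against 41.6% and 2.16%. The median log2 fold change of members outside genes was 0.45 and 0.55, and -0.11 over 13 and 0.07 over 16 of them with a mean of at least 20 units. Of those 16 in the TBT lineage 2 were higher and 2 lower, while all such LTR loci outside genes were still more often higher. The filter takes the mean over P4 and P5 together, so a locus of low level can enter through its P5 reads alone. The excess of higher members is therefore shown for loci of low level only in the TBT lineage. By subtype, beside 6.47% higher and 5.97% lower of all LTR loci, ORR1D1 had 167 higher and 194 lower of 2789 in the DMSO lineage, ORR1D2 73 and 89 of 1569 and ORR1E 156 and 120 of 2277. ORR1D1-int had 8 higher and 17 lower of 225, ORR1D2-int 7 and 2 of 123, ORR1D-int 2 and 4 of 56, and ORR1E-int 14 and 6 of 149. In the TBT lineage, beside 14.6% and 14.2% of all LTR loci, ORR1D1 had 337 higher and 449 lower of 2885, ORR1D2 221 and 232 of 1652 and ORR1E 327 and 340 of 2418. ORR1D1-int had 25 and 39 of 224 there, ORR1D2-int 36 and 21 of 135, ORR1D-int 9 and 11 of 64, and ORR1E-int 27 and 15 of 152. Differences between subtypes were not tested.

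Summed over all its loci, ORR1D1 fell from P4 to P5. In the F1 DMSO lineage P4 libraries had 29823 to 33381 CPM and P5 libraries 26642 to 29076 CPM, which did not overlap, with a log2 fold change of -0.19 (SE 0.0403, FDR 0.00137). ORR1D1-int (-0.20), ORR1D2 (-0.12) and ORR1E (-0.11) also fell, and 30.4% of all species totals were lower. ORR1E-int (0.09, FDR 0.144), ORR1D2-int (0.05, FDR 0.356) and ORR1D-int (-0.13, FDR 0.0621) did not pass. In the F1 TBT lineage 5 of 7 fell, ORR1D1 by 0.25, ORR1D1-int by 0.26, ORR1D-int by 0.23, ORR1D2 by 0.17 and ORR1E by 0.16 on the log2 scale, and the background was 35.8%. With each library scaled to the same total the calls became 2 higher and 1 lower in the DMSO lineage, against 31.9% and 11.4% of all species, and 2 and 2 in the TBT lineage, against 42.3% and 14.5%. Most of these small falls thus depend on the scaling. The ORR1D1 fall kept its direction and call in 18 of 19 alternatives in the DMSO and 23 of 24 in the TBT lineage, and turned only over loci outside genes.

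Totals over loci outside genes went the other way, and all 7 subtypes rose in both F1 lineages without overlap between the groups. In the DMSO lineage ORR1D-int rose from 4.93 ± 0.434 to 16.2 ± 3.29 CPM (log2 fold change 1.65), the largest rise of the 7. ORR1E rose from 373 ± 15.3 to 746 ± 134 CPM (0.98), ORR1D1 from 311 ± 34.5 to 541 ± 69.9 CPM (0.79) and ORR1D2 from 329 ± 17.2 to 567.9 ± 76.6 CPM (0.78). The internal parts ORR1D1-int (25.4 to 66.9 CPM, 1.40), ORR1D2-int (18.3 to 47.03 CPM, 1.34) and ORR1E-int (56.8 to 100.4 CPM, 0.85) rose likewise, and the highest FDR of the 7 was 0.000851. In the TBT lineage log2 fold changes ran from 1.09 for ORR1D2 to 2.56 for ORR1D-int, which had 4.39 CPM in P4 and 25.5 CPM in P5. Rises were the rule for LTR species, with 74.2% of all species totals outside genes higher in the DMSO and 93.4% in the TBT lineage. All 7 calls held in both lineages under both other scalings, by the edgeR quasi-likelihood test, with the replicate block and without each library in turn, settings that had 66.9% to 79% of all species higher in the DMSO and 89.6% to 96% in the TBT lineage.

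Some of the largest rises were loci with no read in P4. Such loci entered the test through their P5 reads alone. The ORR1E locus printed above at chr14:19703244-19703552 was at 0 in all 7 F1 P4 TBT libraries, and its F1 P5 TBT libraries had a lowest, median and highest value of 1.19, 4.604 and 11.9 CPM. This was at least 8.37-fold higher against a limit of 3 reads in each P4 library (FDR 6.4e-08). It was at 0 in all 9 F3 P4 libraries as well, and had 19.7, 25.7, 8.71 and 6.93 CPM in F3 P5 DMSO, at least 16.3-fold higher (FDR 0.0374). Without the shallow P5 libraries 1 and 2 the bound was 8.33-fold and the FDR 0.085, and the call was lost in 10 of 20 alternatives. F3 P5 TBT libraries had 91.8, 8.84, 5.30, 34.8 and 11.1 CPM, at least 25.5-fold higher, which did not pass the test (FDR 0.205). Without the shallow libraries, among them P5 library 5 with 91.8 CPM, the bound was 23.7-fold and the FDR 0.00613. Only the F1 DMSO lineage was low, with 1.67, 1.40, 0 and 0.336 CPM in P5 and 0 to 0.267 CPM in P4. P6 libraries had at most 1.49 CPM. The P5 values differed widely between libraries, and P4 and P5 did not overlap in any lineage but F1 DMSO.

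The ORR1E locus in an intron of Gm26848, chr17:6438203-6438519, was higher in P5 in 3 comparisons. F1 P5 DMSO libraries had 5.26, 10.04, 4.82 and 4.20 CPM against 0 to 1.14 CPM in P4 (log2 fold change 3.30, FDR 0.000405). In the F1 TBT lineage P5 libraries had 6.99, 12.7 and 18.6 CPM as lowest, median and highest, against 0, 0 and 2.37 CPM (4.62, FDR 4.2e-07). F3 P5 DMSO libraries had 32.01, 48.9, 56.98 and 20.1 CPM against 2.83, 0.489, 0 and 0.935 CPM in P4 (5.31, FDR 0.0215). The F3 DMSO call was lost in 7 of 19 alternatives, among them leaving out the shallow P5 libraries 1 and 2 (FDR 0.0685). P5 and P4 did not overlap in any of these, nor in the F3 TBT lineage, where P5 had 19.13, 30.0, 17.8, 32.4 and 28.7 CPM and P4 0, 1.82, 2.11, 2.10 and 0 CPM. P6 cells had means of 1.66 to 8.10 CPM.

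Further rises were smaller in level. The ORR1D1 locus chr11:96085818-96086185, 1962 bases from Gm22423, was at 0 in the 5 F1 P4 DMSO libraries and had 2.15, 3.03, 3.96 and 3.70 CPM in P5, at least 4.35-fold higher (FDR 0.00284). The ORR1E locus chr9:39726531-39726751, 1990 bases from Olfr966-ps1, had a mean of 0.245 CPM in F1 P4 DMSO and 4.54, 2.57, 4.65 and 3.87 CPM in P5 (FDR 0.00218). The ORR1E locus chr12:85574995-85575300, 21719 bases from Gm47863, was at 0 in every P4 and P6 library of the series. It had 1.67, 2.80, 2.07 and 1.35 CPM in F1 P5 DMSO and 1.41 to 5.79 CPM in F1 P5 TBT (median 2.71, FDR 8.5e-07 for the TBT lineage).

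Falls were smaller in fold. In the F1 DMSO lineage the ORR1D1 locus chr3:83795581-83795872, near Gm26771, had 2.61 CPM in P4 and 0.0841 CPM in P5 (log2 fold change -3.03, FDR 0.00992). An ORR1D1 locus in an exon of Txnl1, chr18:63661369-63661588, fell from 4.08 to 0.765 CPM (-2.39, FDR 0.00327), and an ORR1E locus in an intron of AC165291.1, chr17:48568055-48568390, from 6.81 to 1.73 CPM (-2.27, FDR 0.00877). The leading falls of the F1 TBT lineage were 3 ORR1D1 loci in Lrrc49, chr9:60642729-60642786, chr9:60642986-60643249 and chr9:60643642-60643685. They had identical values, shared with other LTR loci of the gene, of 10.6 ± 1.46 CPM in P4 and 4.97 ± 1.72 CPM in P5 (n = 7 each, -1.10, FDR 0.00016).

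**Figure D4:**
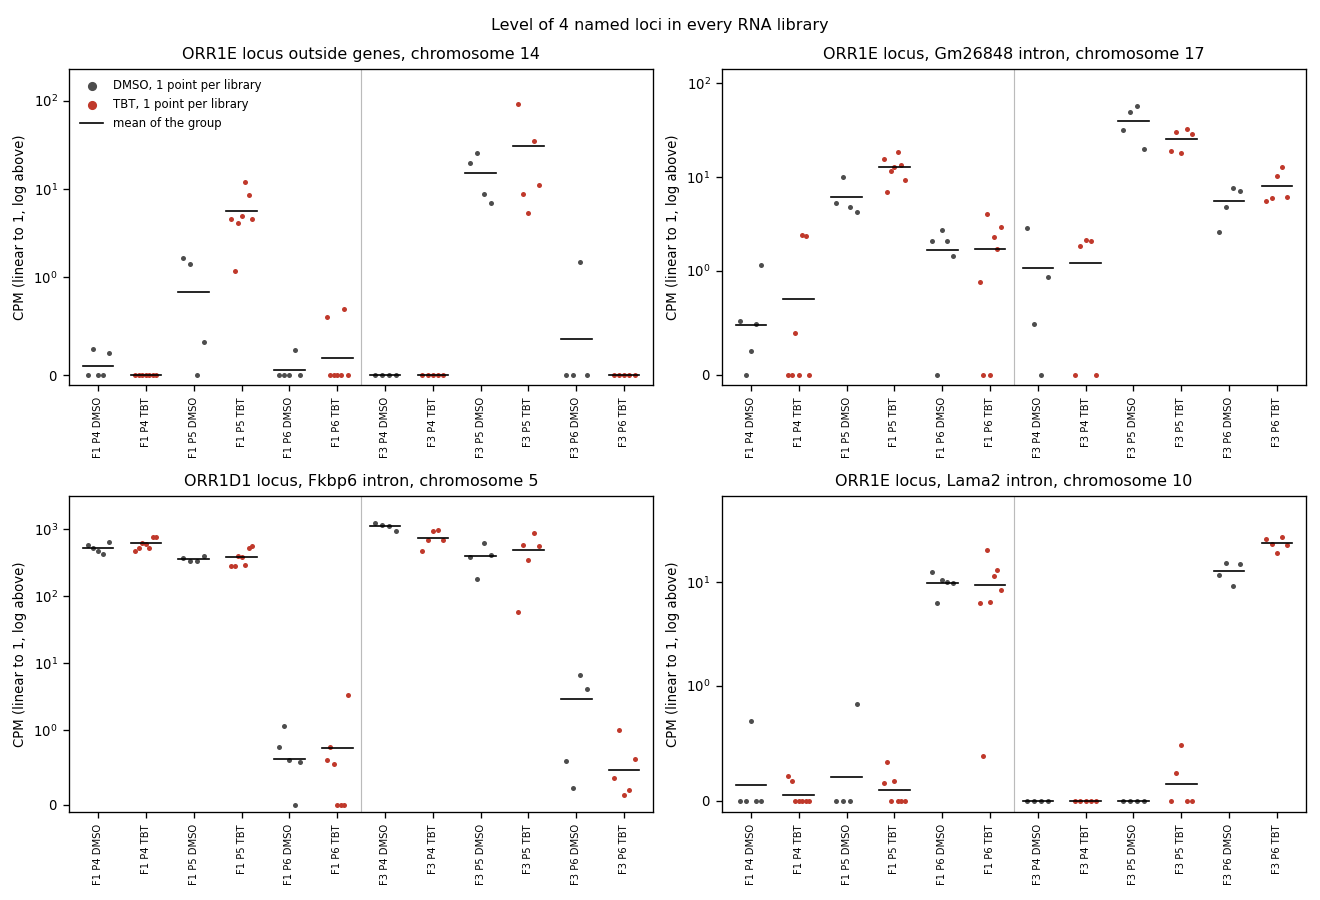
Level of 4 named loci (CPM, linear to 1 and logarithmic above) in every RNA library, with 1 point per library (grey DMSO, red TBT) and a line at the group mean. The ORR1E locus outside genes is at 0 in all F3 P4 libraries and between 5.30 and 91.8 CPM in F3 P5, and the Lama2 intron locus is near 0 in germline cells.

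F3 germline libraries were more scattered, and few members passed by limma there. In the F3 DMSO lineage 2 of 6993 members were higher (0.0286%) and 4 lower (0.0572%), against 0.0638% and 0.0809% of all LTR loci, with 980 at an unadjusted p under 0.05 (14.0% of members, 13.5% of all loci). The edgeR quasi-likelihood test called 0 higher and 0 lower, against 0% and 0% of all loci, its likelihood ratio test 81 and 5, against 2.1% and 0.0552%, and DESeq2 67 and 75, against 1.63% and 0.983%. The 2 higher loci are the ORR1E loci printed above on chromosomes 14 and 17. The 4 lower loci were in Fkbp6, and the 3 named by the rule are ORR1D1 chr5:135335808-135335972, ORR1D2 chr5:135295207-135295258 and ORR1D2 chr5:135294710-135295027, all in introns. Each fell from 1105 ± 122 to 395 ± 177 CPM (n = 4 each, log2 fold change -1.61, FDR 0.0193), and the calls were lost in 9 of 19 alternatives. The F3 TBT lineage had 742 and 484 CPM there (-1.01, FDR 0.993). Germ cell markers summed to 16423 CPM (12851 to 20345) in P4 and 11094 CPM (3855 to 18069) in P5 of the F3 DMSO lineage, and to 13799 CPM (2435 to 23453) and 11217 CPM (801 to 17263) in the F3 TBT lineage. In F3 DMSO cells the means of Dazl were 607 and 206 CPM, of Mael 5776 and 1822, of Pou5f1 330 and 90.8 and of Mov10l1 362 and 1137. Of the 7 lists the red blood cell list alone did not overlap between P4 (26.8 to 45.01 CPM) and P5 (7.29 to 25.2 CPM) there, and the part of these cells in the result was not tested. With the replicate block 7 members were higher and 22 lower, against 0.248% and 0.379% of all loci. Without the shallow libraries 0 members and 0% of all loci passed by limma, with 963 members at an unadjusted p under 0.05, against 15.8% of all loci.

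In the F3 TBT lineage 0 of 6226 members passed in either direction by limma, as for all LTR loci (0% higher and 0% lower), and 118 had an unadjusted p under 0.05, against 3.75% of all loci. The edgeR quasi-likelihood test called 105 (2.85% of all loci), its likelihood ratio test 132 (4.03%) and DESeq2 31 (1.38%). Without the shallow libraries limma called 41 of 7069, against 1.32% of all loci. Of the 7 species totals 0 passed in the F3 DMSO lineage, where 4 had an unadjusted p under 0.05 and 9.5% of all species totals passed, and 0 in the F3 TBT lineage, where none had one and 0% passed. DESeq2 called 1 of the F3 DMSO totals. Without the shallow libraries 3 of them fell by limma, ORR1D1 by 0.30 (FDR 0.00919), ORR1D2 by 0.27 (FDR 0.0264) and ORR1E by 0.20 (FDR 0.0485) on the log2 scale, against 19.8% of all species totals called in either direction. Outside genes 3 of 7 totals rose in the F3 DMSO lineage against 39.3% of all species. These were ORR1D1-int from 46.6 to 172 CPM (log2 fold change 2.02, FDR 0.00935), ORR1D2-int from 40.5 to 152 CPM (1.79, FDR 0.0212) and ORR1D-int from 15.4 to 35.0 CPM (2.45, FDR 0.0347), of which the last overlapped between P4 and P5. With the replicate block all 7 rose, against 58.2% of all species, and without the shallow libraries none passed, against 1.69%. In the F3 TBT lineage only ORR1D-int rose, from 5.06 to 32.3 CPM (3.62, FDR 0.0421), against 15.5% of all species. P4 had 0 to 11.3 CPM and P5 3.83 to 46.9 CPM, which overlapped, and the call was lost without P4 library 5, 6, 7 or 9 or P5 library 6, 7, 8 or 9. With the replicate block 4 rose, against 35.4% of all species, and without the shallow libraries all 7, against 79.3%.

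The main question of the design was whether TBT and DMSO lineages differed. By limma no ORR1D or ORR1E locus passed in 5 of the 6 populations. In F1 P4 cells 0 of 6633 members passed (0% of all LTR loci did), and 444 had an unadjusted p under 0.05 (6.69%, against 7.09% of all loci). In F1 P5 cells it was 0 of 8600 (background 0.0106%), with 559 unadjusted (6.50% against 6.89%). In F1 P6 cells it was 0 of 6598 (background 0.00341%), with 203 unadjusted (3.08% against 3.68%). In F3 P4 cells it was 0 of 6076 (background 0%), with 91 unadjusted (1.5% against 1.65%), and in F3 P5 cells 0 of 6923 (background 0%), with 55 unadjusted (0.794% against 1.01%). In F3 P6 cells 3 of 7825 were higher with TBT (0.0383%) and 0 lower, against 0.0343% of all loci, with 617 unadjusted (7.88% against 7.96%). Members were close to the background in each population.

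Other tools called more in some populations. The edgeR quasi-likelihood test called 0 members in the F1 populations P4, P5 and P6, against 0.00109%, 0.00327% and 0.00341% of all loci, and 0, 0 and 3 in those of F3, against 0%, 0% and 0.062%. Its likelihood ratio test called 7, 11 and 0 members in F1, against 0.0939%, 0.317% and 0.0523%, and 0, 192 and 29 in F3, against 0.00347%, 3.15% and 0.338%. DESeq2 called 3, 2 and 0 in F1, against 0.0196%, 0.119% and 0%, and 0, 0 and 12 in F3, against 0.00347%, 0% and 0.11%. The plot of log2 fold changes by comparison shows that members and all LTR loci had like distributions. In F3 P4 cells both were shifted, with a median of -0.71 for members and -0.69 for all loci, and of 0.39 and 0.37 without the shallow libraries.

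**Figure D5:**
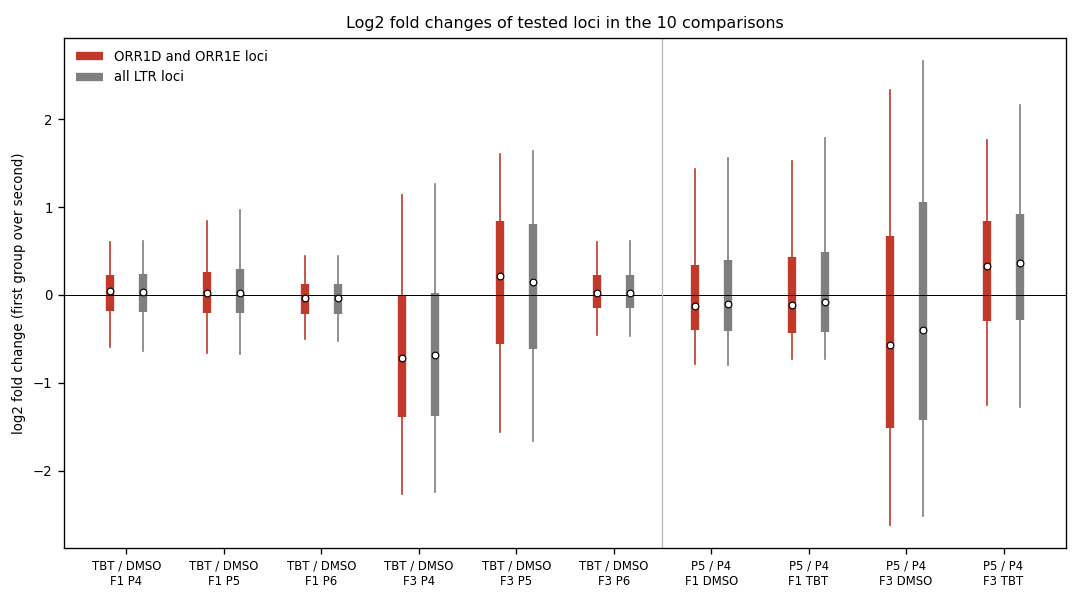
Log2 fold changes of tested ORR1D and ORR1E loci (red) and all tested LTR loci (grey) in the 10 comparisons. The dot is the median, the thick bar the middle 50% and the thin line the 5th to 95th percentile, and members lie close to all loci in each comparison, shifted together below 0 in F3 P4.

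The 3 called loci were all in introns. The ORR1E locus chr10:27244191-27244408 lies in Lama2, which encodes the laminin alpha-2 chain of basement membranes. F3 P6 DMSO libraries had 11.7, 15.3, 9.18 and 14.8 CPM (12.7 ± 2.86), and TBT libraries had 25.7, 23.3, 18.9, 26.9 and 22.5 CPM (23.5 ± 3.11). The groups did not overlap, and the log2 fold change was 0.89 (SE 0.156, FDR 0.0326). In F1 P6 cells the means were 9.80 ± 2.23 CPM with DMSO (n = 5) and 9.42 ± 6.22 CPM with TBT (n = 7). The locus shares all its values with 3 other LTR loci.

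The other called loci are neighbouring ORR1D1 copies with overlapping coordinates in Smad4, the gene for the shared mediator of TGF-beta and BMP signals, at chr18:73680595-73680724 and chr18:73680704-73680825. The first had 15.3, 13.1, 11.2 and 15.2 CPM with DMSO (13.7 ± 1.95) and 28.1, 27.8, 25.5, 21.5 and 21.1 CPM with TBT (24.8 ± 3.36), without overlap (log2 fold change 0.85, SE 0.141, FDR 0.0211). The second had 13.8 ± 1.75 and 24.9 ± 3.38 CPM (0.84, SE 0.139, FDR 0.0211). In F1 P6 cells the first had 22.3 ± 3.79 with DMSO and 24.3 ± 4.82 CPM with TBT. Left out in turn, single F3 P6 libraries ended the Lama2 call in 6 of 9 fits and the Smad4 calls in 3, and moved the count of calls from 0, without TBT library 5 or 6 (0.0191% and 0.0114% of all loci), to 8, without DMSO library 2 (0.138%). Germ cell markers summed to 178 CPM (40.6 to 314) in F3 P6 DMSO and 33.2 CPM (28.8 to 37.2) in F3 P6 TBT libraries, and Leydig cell markers to 57.3 CPM (40.5 to 73.2) and 33.7 CPM (29.4 to 39.1), both without overlap. Endothelial markers had 109 CPM (96.0 to 129) and 143 CPM (128 to 160), and interstitial and peritubular markers 617 CPM (506 to 735) and 647 CPM (529 to 717), among them Pdgfra with means of 91.9 and 133 CPM. The part of these cells in the calls was not tested.

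The loci with the lowest p in each direction elsewhere did not pass by limma. In F1 P4 cells an ORR1D-int locus in Tmem266, chr9:55356615-55357653, had 1.98 ± 1.74 CPM with DMSO and 5.77 ± 1.16 CPM with TBT (FDR 0.582). The ORR1E locus chr5:77382602-77382937, in an intron of Igfbp7, a secreted binding protein for insulin-like growth factors, had 13.3 ± 4.51 and 6.66 ± 0.995 CPM (-0.90, FDR 0.582), with overlap between the groups, and its FDR was 0.0188 by the likelihood ratio test and 0.048 by DESeq2. It had 227 CPM in F1 P6 DMSO cells and shares its values with 5 other LTR loci. In F1 P5 cells the leading locus was the ORR1E locus printed above on chromosome 14. Its means were 0.853 and 5.70 CPM, with overlap between the groups (log2 fold change 2.77, FDR 0.137). Its FDR was 2.1e-07 without a filter on low values, 0.00412 by the edgeR likelihood ratio test and 0.0193 by DESeq2. These are the same F1 P5 TBT libraries as in the comparison with P4. An ORR1E locus in Ldhb, a subunit of lactate dehydrogenase, chr6:142501487-142501782, had 17.03 and 7.97 CPM (-1.04, FDR 0.223).

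In F1 P6 cells an ORR1E locus in an exon of Paip2b, chr6:83810173-83810533, had 10.02 CPM with DMSO and 5.98 CPM with TBT (log2 fold change -0.75). An ORR1D1 locus in Spty2d1, chr7:47005354-47005663, had 5.32 and 9.88 CPM (0.85, FDR 0.999). In F3 P4 cells an ORR1D1-int locus in an exon of Zfp26, chr9:20427468-20428694, had 2.08 and 31.9 CPM (4.75, FDR 0.870), and 3.31 without the shallow libraries (FDR 0.528). The ORR1D2 locus chrX:130707895-130708015, outside genes, had 4.80, 3.42, 2.71 and 1.87 CPM with DMSO, and with TBT 0.233 CPM in library 8 and 0 in the others (-3.54, FDR 0.870, and -3.42 without the shallow libraries). In F3 P5 cells the lowest p among higher loci was at an ORR1D1 locus in Phf21a, chr2:92311103-92311492, with 3.94 and 33.8 CPM (4.25, FDR 1.00), and 1.60 without the shallow libraries (FDR 0.845). The ORR1E locus chr17:67422340-67422641, 67883 bases from Ptprm, had 8.37, 61.7, 5.81 and 0 CPM with DMSO, and with TBT 1.20 CPM in library 8 and 0 in the others (-3.78, FDR 1.00, and 0.0143 by the likelihood ratio test). The F3 P6 locus with the lowest p among lower loci was an ORR1D1 locus in Smc6, chr12:11278420-11278751, with 44.1 ± 5.94 and 31.1 ± 2.68 CPM (-0.50, FDR 0.179).

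Species totals did not pass in any population, by limma 0 of 7 each time, and 0% of all species passed in each of the 6. The nearest was ORR1D2 in F1 P4 cells, with a log2 fold change of 0.08 (FDR 0.439). ORR1E-int had 1468 ± 67.2 CPM with DMSO and 1541 ± 55.2 CPM with TBT in F3 P6 cells (0.07, FDR 0.525) and a log2 fold change of 0.06 in F1 P6 cells (FDR 0.742). In F3 P4 cells ORR1E-int had -0.68 (FDR 0.508) and ORR1D2-int -0.58 (FDR 0.508), which rest on the shallow TBT libraries 5 and 9. Without them the values were 0.013 (FDR 0.913) and -0.06 (FDR 0.684). The difference of the TBT effect between P4 and P5 cells was tested as an interaction by limma. In F1 0 of 7259 members passed, against 0.000986% of all loci, with 278 at an unadjusted p under 0.05 (4.32% of all loci had one). In F3 it was 0 of 6532, against 0%, with 57 (1.39% of all loci).

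Methylated DNA was read in P6 cells as counts per window of 100 bases, and a window was assigned to a member where at least 50 bases overlapped. There were 932 such windows in F1 and 998 in F3, with a mean count of 7.98 and 7.77. They had 0.716 and 0.715 CpG sites on average, against 0.818 and 0.813 in all windows, and 53.9% and 53.0% had none. By the edgeR quasi-likelihood test 0 of 215 tested member windows passed in F1, against 0.0318% of all windows, with 9 at an unadjusted p under 0.05, and 5.05% of all windows had one. In F3 0 of 302 passed, against 0%, with 21 unadjusted and 5.16% of all windows. The edgeR likelihood ratio test and DESeq2 also called 0 in both generations, against 0.0347% and 0% of all windows in F1 and 0% and 0% in F3. Unadjusted there were 12 and 3 in F1, against 5.36% and 1.77% of all windows, and 21 and 10 in F3, against 5.45% and 1.98%.

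The gained member window with the lowest p in F1 was an ORR1D1 window in Atp10a, chr7:58825901-58826000, with counts of 5, 6 and 6 with DMSO and 20, 18, 10 and 26 with TBT. This is 6.84 and 12.1 CPM, which did not pass (log2 fold change 0.88, FDR 0.976). The lost window with the lowest p was in an ORR1D1-int locus outside genes, chr14:50305401-50305500, with counts of 13, 14 and 12 against 10, 19, 5 and 13 (-0.96, FDR 0.938). In F3 an ORR1D1 window in 1700009C05Rik, chr6:81907101-81907200, had 16.5 CPM with DMSO and 24.0 CPM with TBT (0.55, FDR 0.913), and an ORR1D2 window outside genes, chr6:143459901-143460000, had 17.7 and 11.47 CPM (-0.62, FDR 0.913). Windows of ORR1E had more CpG sites than those of ORR1D1 in both generations, 0.883 against 0.582 in F1 and 0.865 against 0.544 in F3.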

How the data were processed

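The authors trimmed paired reads with Trim Galore, aligned them to mm10 with STAR and counted LTR elements from RepeatMasker with a modified ERVmap pipeline. The deposited signal is TMM-scaled CPM, in which each value above 0 was a whole multiple of the smallest in its library (100% within a tolerance of 0.01), so whole reads were recovered. For methylated DNA the authors deposited raw counts per window of 100 bases, and the windows analysed are a subset of the genome. Testing used limma 3.58.1 (trend, R 4.3.3) on log2(CPM + 1 unit) for loci averaging 5 units or more, where 1 unit was 0.181 to 0.294 CPM. The FDR was taken over all loci or species tested, two-sided, at 0.05. Raw window counts were tested with edgeR 4.0.16 (quasi-likelihood, filterByExpr, TMM), and edgeR and DESeq2 1.42.0 were run on recovered reads as alternatives. Scripts were tested on simulated data.

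The members and the lists were chosen with earlier results of these data known. The loci named are the highest per species, the highest per species outside genes, up to 3 higher and 3 lower called loci with the largest fold change and no overlap between groups per comparison, or the lowest p where none passed, and for methylated DNA the lowest p in each direction. Among replicate pairs of RNA libraries no pair was identical (chi-square per degree of freedom 1.49 to 40.5). P4 and P5 libraries share label numbers. In F3 DMSO same-numbered libraries had r of 0.101 to 0.272 with each other, and number 2 had a higher r with a library of another number (0.145). The replicate block is given as an alternative that rests on the shared number. Intervals and limits at 0 reads cover counting error only. Genes and exons came from the mm10 annotation, with coordinates counted from 1. The sequence of an ORR1D1-int locus is not reported here.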

Additional observations from a re-analysis of the deposited data

Results flagged for a closer look

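Within groups of 4 to 7 libraries, 159 sets of values were searched for a library far from the others, and 17 held one. How many chance alone would give cannot be said. The sets share libraries, and many of the loci were picked for a low p or a large fold change. Some hits are loci with no read in any other library of the group, where a few reads are enough. Of the 17, 6 were library 5 of F3 P5 TBT, the shallowest in the series. It had the lowest totals of ORR1D1 (4774 CPM, others 29126 to 38676), ORR1D1-int (377 CPM, others 2273 to 2765), ORR1D2-int (226 CPM, others 1553 to 1951), ORR1E (3295 CPM, others 19783 to 26323) and ORR1E-int (214 CPM, others 1181 to 1480). It also had the highest share of ORR1D and ORR1E reads outside genes, 26.4% against 3.80% to 7.84%.

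Other totals held 3 such libraries. F1 P6 TBT library 11 had the highest ORR1D2 total (16632 CPM, others 15033 to 15385) and the highest ORR1E total (24573 CPM, others 23162 to 23416), and F3 P4 DMSO library 3 had the lowest ORR1E total (22014 CPM, others 24267 to 24708).

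The remaining 8 were single loci named in the report. ORR1D1 chr7:47005354-47005663 was highest in F1 P6 DMSO library 12 (8.02 CPM, others 4.16 to 5.20) and lowest in F1 P6 TBT library 11 (4.63 CPM, others 10.2 to 11.4). ORR1D1-int chr9:20427468-20428694 had 8.31 CPM in F3 P4 DMSO library 2 and 0 in the others. ORR1D2 chrX:130707895-130708015 had 0.233 CPM in F3 P4 TBT library 8 and 0 in the others. ORR1E chr17:67422340-67422641 had 61.7 CPM in F3 P5 DMSO library 2 (others 0 to 8.37) and 1.20 CPM in F3 P5 TBT library 8 (others 0). ORR1D1 chr12:11278420-11278751 had 35.3 CPM in F3 P6 DMSO library 4 (others 46.4 to 47.6). ORR1D1 chr3:83795581-83795872 had 0.336 CPM in F1 P5 DMSO library 48-4 and 0 in the others.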

How the results depend on the processing

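In F1, members outside genes were called higher in P5 than in P4 more often than lower under each alternative run, except with a mean of at least 20 units in the TBT lineage, where 2 were higher and 2 lower of 16 (34.2% and 8.92% of all LTR loci outside genes). With that mean the median log2 fold change of members outside genes was -0.11 in the DMSO lineage (13 loci) and 0.071 in the TBT lineage. Members in introns turned with the scaling, from 379 higher and 411 lower to 444 and 182 at the same total in the DMSO lineage (all intron loci from 5.99% and 6.13% to 6.99% and 2.69%), and from 845 and 1048 to 1036 and 488 in the TBT lineage (from 12.8% and 15.1% to 15.6% and 7.01%). Calls in F3 germline cells moved with most choices. Depth limits what single loci can show, since 1 read was worth 0.129 to 0.957 CPM across libraries. Among 55 named results with 1093 alternatives, 969 kept direction and side of the threshold, 56 lost it, 34 gained it and 34 changed sign, all 34 of them species totals. The cause of these changes was not tested. A result that did not pass and stayed so counts among the 969, so that count does not measure how firm the calls were.

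Counts of called loci with TBT against DMSO moved as follows. The share of all LTR loci called is given in brackets. In F1 P4 the edgeR likelihood ratio test gave 7 (0.0939%) and DESeq2 3 (0.0196%), against 0 (0%). In F1 P5 no filter gave 33 (0.202%), the likelihood ratio test 11 (0.317%) and DESeq2 2 (0.119%), against 0 (0.0106%). In F3 P5 the likelihood ratio test gave 192 (3.15%), against 0 (0%). In F3 P6 no filter gave 5 (0.0367%), the likelihood ratio test 29 (0.338%), DESeq2 12 (0.11%) and loci outside genes 0 (0.0791%), against 3 (0.0343%). For P5 with P4, loci outside genes alone gave 5 (5.34%) against 859 in F1 DMSO and 66 (41.6%) against 2089 in F1 TBT, where fewer loci were tested. For F3 DMSO, with 6 calls (0.145%), a pseudocount of 0.25 units gave 0 (0%), no filter 74 (0.382%), a mean of at least 20 units 0 (0%), the quasi-likelihood test 0 (0%), the likelihood ratio test 86 (2.15%), DESeq2 142 (2.61%), loci outside genes 1 (0.544%), the replicate block 29 (0.627%) and leaving out the shallow libraries 0 (0%). For F3 TBT, with 0 calls (0%), a pseudocount of 4 units gave 1 (0.0119%), the quasi-likelihood test 105 (2.85%), the likelihood ratio test 132 (4.03%), DESeq2 31 (1.38%), loci outside genes 2 (0.278%), the replicate block 1 (0.013%) and leaving out the shallow libraries 41 (1.32%).

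Species totals called in F1 DMSO were 4 (45.6% of all species), and 7 outside genes (74.4%). In F3 DMSO they were 0 (9.5%), with 1 by DESeq2 (20.2%), 2 by median-ratio scaling (17.3%), 3 outside genes (39.3%), 3 over loci of at least 5 units (26.8%) and 3 without the shallow libraries (19.8%). In F3 TBT they were 0 (0%), and 1 outside genes (15.5%). Totals outside genes in F3 DMSO were 3, with 6 at the same total per library (59.1%), 7 by median-ratio scaling (65.7%), 7 with the replicate block (58.2%) and 0 without the shallow libraries (1.69%). In F3 TBT they were 1, with 7 by median-ratio scaling (53.1%), 4 with the block (35.4%) and 7 without the shallow libraries (79.3%). These settings for totals outside genes, the shallow libraries and libraries 7 and 8 of F1 P6 TBT were chosen after seeing the data. Levels outside genes alone were 1086 of 75356 CPM in F1 P4, 2316 of 66844 in F1 P5, 866 of 72696 in F1 P6, 2385 of 78322 in F3 P4, 5028 of 65210 in F3 P5 and 307 of 73454 in F3 P6.

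Leaving out 1 library at a time gave 511 to 948 called loci in F1 DMSO (7.23% to 13.4% of all LTR loci, with 511 without P5 library 43-5 and 569 without P5 library 44-1), 1730 to 2278 in F1 TBT (24.2% to 30.7%), 0 to 177 in F3 DMSO (0% to 2.6%, with 0 without P4 library 3, P5 library 1 or P5 library 2, and 177 without P5 library 3) and 0 to 5 in F3 TBT (0% to 0.33%, with 5 without P5 library 5). With TBT against DMSO it gave 0 to 1 in F1 P5 (0.00329% to 0.0763%, with 1 without P5 DMSO library 48-4), 0 to 1 in F1 P6 (0% to 0.0158%, with 1 without TBT library 11) and 0 to 8 in F3 P6 (0.0114% to 0.138%, with 0 without TBT library 5 or 6, 1 without TBT library 7). Species totals gave 2 to 5 in F1 DMSO (36.4% to 48.6% of all species, with 2 without P5 library 43-5 or 44-1) and 0 to 2 in F3 DMSO (3.92% to 20.5%), and totals outside genes 0 to 5 in F3 DMSO (20% to 54.9%) and 0 to 4 in F3 TBT (2.7% to 42.7%).

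The replicate block gave 499 higher and 633 lower loci in F1 DMSO, against 7692 and 9051 of all 100580 LTR loci, and 1146 and 1636 in F1 TBT, against 18040 and 21901 of 105677. The F1 DMSO block also leaves out P4 library 44-3, which has no P5 library of its number, and without that library but with no block there were 450 higher and 498 lower, against 6783 and 6709 of all loci. Same-numbered libraries had r of 0.00696 to 0.109 in F1 DMSO, 0.0229 to 0.267 in F1 TBT and -0.0931 to 0.471 in F3 TBT. In each of these lineages, as in F3 DMSO, some libraries had a higher r with a library of another number. A pairing therefore rests on the shared number alone, and whether same-numbered sorts came from the same animals is not stated in the sources used here.

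Log2 fold changes of totals changed sign as follows. With TBT in F1 P4, ORR1D2 outside genes was -0.14, and ORR1E-int was -0.0097 at the same total and -0.21 outside genes. In F1 P5, ORR1D2 was -0.0022 at the same total and -0.0068 by median-ratio scaling, and ORR1E-int was 0.085 outside genes and ran from -0.0336 (TBT library 47-5 left out) over 0.0026 (TBT library 45-4) to 0.0063 (DMSO library 44-1). ORR1E-int in F3 P4 was 0.12 outside genes and 0.013 without the shallow libraries. In F3 P5, ORR1D-int ran from -0.487 without TBT library 8 to 0.18 without TBT library 5 and was 0.24 without the shallow libraries. ORR1E-int there was 0.14 by the quasi-likelihood test, the likelihood ratio test and DESeq2, 0.055 at the same total, 0.099 by median-ratio scaling, 0.20 outside genes and 0.088 without the shallow libraries, and ran from -0.256 without DMSO library 2 to 0.45 without TBT library 5, with 0.046 and 0.040 without DMSO libraries 3 and 4. For P5 with P4, ORR1D1 outside genes was 0.79 in F1 DMSO, 1.18 in F1 TBT and 1.37 in F3 DMSO. ORR1E-int in F1 TBT was -0.093 over loci averaging 5 units or more and ran from -0.0127 without P5 library 47-5 (-0.011 without 47-4) to 0.0235 without P5 library 45-4. ORR1E-int in F3 DMSO was 0.11 at the same total, 1.12 outside genes and 0.020 without the shallow libraries. In F3 TBT, ORR1D-int was 3.62 outside genes and ran from -0.512 without P5 library 8 to 0.16 without P5 library 5, and ORR1E-int was -0.15 without P4 library 5.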
